A study of Homo sapiens with 13 samples.

Results

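The cytosolic ribosomal protein genes are the protein-coding genes that encode the structural proteins of the cytoplasmic ribosome. They were taken by symbol from GENCODE release 44 on GRCh37 (hg19): RPL or RPS followed by a number with an optional A, L or X ending, plus RPLP0, RPLP1, RPLP2 and RPSA, without the RPS6K kinase genes and the Y chromosome. No measured value entered this choice. The rule gave 81 members of 19881 nuclear protein-coding genes, spread over 21 chromosomes: 43 genes of the large (60S) subunit, 31 of the small (40S) subunit, 3 of the P stalk (RPLP0, RPLP1 and RPLP2) and 4 paralogs with an L ending (RPL3L, RPL10L, RPL39L and RPS27L).

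Chromatin immunoprecipitation and sequencing (ChIP-seq) was carried out in MDA-MB-231 cells, an established human triple negative breast cancer line of the basal B class, grown under standard conditions with no treatment. Antibodies were directed to H3K4me3, H3K27ac, H3K4me1, RNA polymerase II (Pol II), CTCF and the acetyltransferases p300 and CBP. Each antibody gave 2 replicate libraries, except p300/CBP, for which the replicates were pooled into 1 library. The replicates of an antibody were merged before peaks were called, so each of the 6 peak lists is 1 observation with no replicate error, and the 2 input libraries were not analysed here.

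The peak lists give positions on a grid of 50 bp and no height, so sequencing depth is unknown and a level of binding could not be read. They hold from 13984 peaks (p300/CBP) to 88319 peaks (H3K4me1). Enriched stretches closer to each other than a set gap had been joined into 1 peak: 500 bp for H3K4me3 and H3K27ac, 800 bp for Pol II and 1000 bp for H3K4me1, against 50 bp for CTCF and p300/CBP. A wide peak can thus hold short stretches below the threshold. The names of the lists mark background subtraction for H3K4me1, H3K4me3, H3K27ac and p300/CBP, but not for Pol II and CTCF. The 6 basal B markers VIM, CD44, AXL, FOSL1, CAV1 and MSN all had H3K4me3, H3K27ac and Pol II at their starts. Of the luminal genes, ESR1, GATA3 and CDH1 had none of these 3, PGR had H3K4me3 alone, and FOXA1 and ERBB3 had all 3.

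Ribosomal proteins are made in large and nearly equal amounts, and their genes are among the most heavily transcribed by Pol II in growing cells. They are short, many host small nucleolar RNAs (snoRNAs) in their introns, and most of their mRNAs start with a 5′ terminal oligopyrimidine (TOP) tract, a C followed by a run of C and T through which mTOR signalling sets their translation. H3K4me3 and H3K27ac mark the nucleosomes around active transcription start sites (TSSs), H3K4me1 flanks active promoters and marks enhancers, p300 and CBP are found mostly at enhancers, and CTCF is an insulator and loop anchor protein. Reads that match several places in a genome are not kept in a list made from unique alignments, which matters for this family because its processed pseudogenes are numerous.

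The sequence at the TSS was read first, because it is shared by the family and was not part of the rule. The base at the annotated canonical TSS was a C in 62 of 81 members (76.5%) against 10.7% of all protein-coding genes. A C followed by at least 4 further C or T bases, the form of a TOP tract, stood at the TSS of 58 members (71.6%). That form was found at 4.59% of all protein-coding genes and at 5.45% of those with H3K27ac at the promoter. The set called translation factor genes here was chosen for TOP mRNAs and also holds genes of other functions, such as TPT1, NACA and HNRNPA1. It had the form in 14 of 16 cases, a share that this choice largely fixed. Mitochondrial ribosomal protein genes had it in 6.41% and ribosome biogenesis genes in 10.7%. The following lines give 30 bases of GRCh37 on the coding strand, 15 before the TSS and 15 from it, with capitals for the unbroken run of C and T that covers the TSS base. The first set shows genes with a TOP-like start, from each role described later.

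RPLP0 (chr12:120638900-120638929, minus strand): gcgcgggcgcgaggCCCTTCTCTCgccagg
RPLP1 (chr15:69745142-69745171, plus strand): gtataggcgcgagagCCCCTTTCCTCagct
RPLP2 (chr11:809952-809981, plus strand): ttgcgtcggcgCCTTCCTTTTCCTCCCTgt
RPSA (chr3:39448196-39448225, plus strand): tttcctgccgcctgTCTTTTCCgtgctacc
RPS6 (chr9:19380220-19380249, minus strand): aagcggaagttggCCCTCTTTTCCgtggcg
RPL5 (chr1:93297582-93297611, plus strand): cgcaagggctgtggCCCTTTTCCCaccccc
RPL11 (chr1:24018281-24018310, plus strand): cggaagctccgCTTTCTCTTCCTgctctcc
RPS19 (chr19:42364310-42364339, plus strand): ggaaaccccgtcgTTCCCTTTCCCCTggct
RPS24 (chr10:79793606-79793635, plus strand): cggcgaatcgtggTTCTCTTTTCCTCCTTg
RPS3 (chr11:75110547-75110576, plus strand): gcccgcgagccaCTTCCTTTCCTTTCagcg
RPL7A (chr9:136215058-136215087, plus strand): ccacaaTTCCCTTTCCTTTCTCTCTCCTCC

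Within these 30 bases, RPL7A had the longest run, 24 bases, and its run and that of RPL39 reached the last base shown, so both may be longer. Of the 23 members without the form, several had a pyrimidine run a few bases away, and 65 of 81 members (80.2%) held a run of at least 8 C and T within these 30 bases, against 13.2% of all genes. The second set pairs the 4 paralogs, none of which had the form, with the genes they resemble, and adds RPL4, where the annotated TSS base was A.

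RPS27 (chr1:153963223-153963252, plus strand): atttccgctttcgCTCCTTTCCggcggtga
RPS27L (chr15:63449662-63449691, minus strand): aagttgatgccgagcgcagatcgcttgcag
RPL39 (chrX:118925579-118925608, minus strand): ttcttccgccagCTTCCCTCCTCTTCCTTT
RPL39L (chr3:186857270-186857299, minus strand): gcatccggggaaatcgcggtcttagcatcc
RPL10 (chrX:153626703-153626732, plus strand): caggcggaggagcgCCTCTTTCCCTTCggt
RPL10L (chr14:47120970-47120999, minus strand): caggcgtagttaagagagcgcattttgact
RPL3 (chr22:39715614-39715643, minus strand): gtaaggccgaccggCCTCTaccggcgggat
RPL3L (chr16:2004676-2004705, minus strand): agtcctggccctgccactcgacctctggcg
RPL4 (chr15:66797179-66797208, minus strand): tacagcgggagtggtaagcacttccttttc

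RPL3 missed the form by length alone, with a run of 4 bases from the TSS. RPL4 had a run of 10 bases that did not reach the annotated TSS base.

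Short strings were then searched on both strands of the 300 bases from 250 before to 50 from the TSS, each counted by itself, with overlaps between different strings allowed. The ETS-type string CCGGAAG was present in 28 members (34.6%), against 14.1% of all promoters and 20.7% of those with H3K27ac. GGGCGG, the core of the GC box, was found in 61.7% of members and 61.4% of all promoters, but in 75.7% of promoters with H3K27ac. CCAAT was found in 33.3%, against 36.0% of all promoters and 36.7% of those with H3K27ac. TATAAA was found in 8.64%, near the 9.62% of all promoters but above the 4.94% of those with H3K27ac. CACGTG, the E-box, was present in 6.17%, against 8.76% of all promoters and 10.2% of those with H3K27ac. AAGATGGCG was present in 9.88% (2.85% and 4.45%), and TGACGTCA in 4.94% (2.68% and 3.53%). TGANTCA, the form of an AP-1 site, was present in 1 member (1.23%), against 5.4% and 3.99%. The median GC content of these promoters was 60% in members and 63.7% in all genes.

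The palindrome CTCGCGAG was found in 7 members (8.64%), against 1.46% of all promoters and 2.18% of those with H3K27ac. The following lines give 30 bases around the match closest to the TSS, with the string in capitals, for the 5 members in which it began between 25 and 64 bases before the TSS.

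RPS6 (chr9:19380267-19380296, minus strand): cttctgctcatCTCGCGAGaactgaaagcg
RPL27A (chr11:8704303-8704332, plus strand): gtggccgatacCTCGCGAGacttggcgaag
RPL26 (chr17:8286541-8286570, minus strand): gagacataggtCTCGCGAGatctttggtaa
RPL17 (chr18:47018881-47018910, minus strand): cggctacgaatCTCGCGAGaagtcaagttc
RPS19 (chr19:42364266-42364295, plus strand): ctttcggaactCTCGCGAGaccctacgccc

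RPS19 held a further match 67 bases before the TSS, and the match of RPL4 lay 239 bases before it. These shares describe letters in a window and were not tested.

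Each promoter was read as a 3 kb window centred on the canonical TSS, and a window was counted where a peak touched it. H3K4me3 touched 78 of 81 windows (96.3%, Wilson 95% interval 89.7 to 98.7), against 62.7% of all protein-coding genes. H3K27ac touched 78 (background 61.5%) and Pol II touched 78 (background 58.4%). They were the same 78 genes, and all 3 were present together at 56.3% of all genes. Among the 12218 genes with H3K27ac in the window, H3K4me3 was present at 97.7% and Pol II at 92%. The 78 members with H3K27ac all had both. They were thus close to genes with an acetylated promoter for H3K4me3 and above them for Pol II. The TSS base itself was covered by H3K4me3 in 75 members (52.2% of all genes and 83% of those with H3K27ac), by H3K27ac in 75 (47.6% and 77.4%) and by Pol II in 78 (51.2% and 81.6%). Here and later, the background includes the members, the shares were set side by side without a test, and the intervals cover counting error only.

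**Figure D1:**
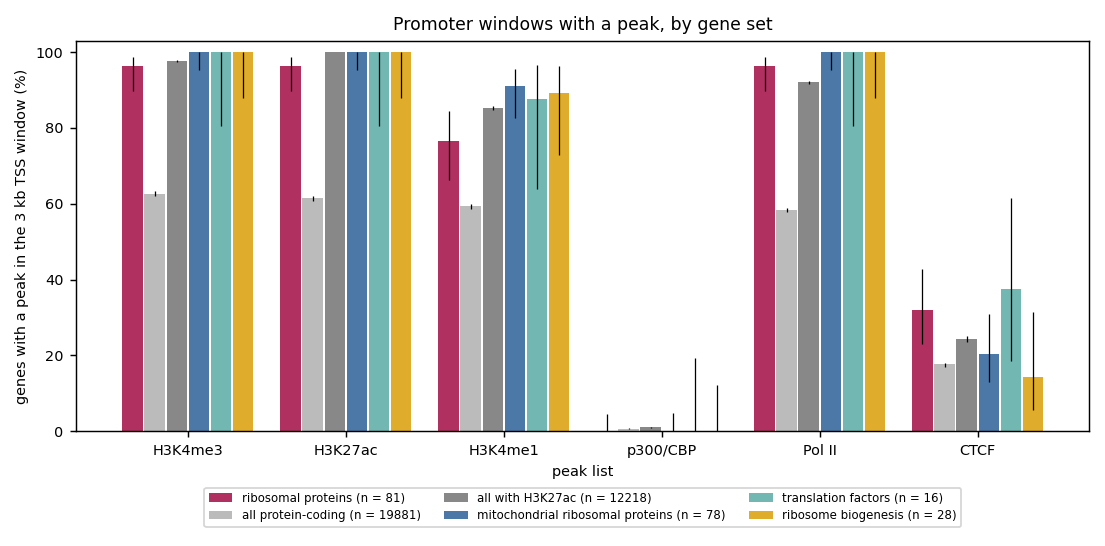
Share of genes (%) whose 3 kb TSS window is touched by a peak of each list, for ribosomal protein genes, all protein-coding genes, those with H3K27ac and 3 comparison families; lines are Wilson 95% intervals. Ribosomal protein genes reached 96.3% for H3K4me3, H3K27ac and Pol II, 76.5% for H3K4me1, 0% for p300/CBP and 32.1% for CTCF.

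The members without H3K4me3, H3K27ac and Pol II included the paralogs RPL3L and RPL10L. RPL3L is a paralog of RPL3 known from striated muscle, and RPL10L is an intronless copy of RPL10 known from the testis. Their windows had no H3K4me1 peak either, and a CTCF peak lay 17 bp from the RPL10L TSS. Sequence repeated elsewhere in the genome, where unique reads cannot be placed, was counted in words of 32 bases. Over members, a median of 11.3% of the words of the window and 15.3% of those of the body occurred more than once in GRCh37. The part of such repeats in missing peaks was not tested.

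H3K4me1 touched 62 windows (76.5%, interval 66.2 to 84.4, and 79.5% of members with H3K27ac), against 59.4% of all genes and 85.3% of those with H3K27ac. It covered the TSS base of no member (0%, interval up to 4.53%), where 8.38% of all genes and 9.32% of those with H3K27ac had such a peak. This was also rare in the comparison families. Such a peak was at 0 of 16 translation factor genes, 2 of 78 mitochondrial ribosomal protein genes and 1 of 28 ribosome biogenesis genes. The mark lay on the flanks and mainly inside the gene. It was over 14 members at 500 bp before the TSS, over none at the TSS and at 500 bp after it, over 5 at 1000 bp, over 62 at 2000 bp and over 68 (84.0%) at 2350 bp. Genes with H3K27ac reached their highest share, 57.0%, at 1650 bp. The next H3K4me1 peak downstream began at a median of 1474 bp from the TSS (quartiles 1276 to 1745) in members with H3K27ac and at 1315 bp (918 to 2480) in all genes with it. The starts in members were thus in a narrower range. The 19 members without H3K4me1 in the window included RPS6, RPL5, RPL4, RPL10 and RPL23A, which are named here after their values were seen. In 76 of 81 members H3K4me1 was present somewhere in the gene body. No share over other genes is given beside this count, so it is not read as a trait of the members.

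**Figure D2:**
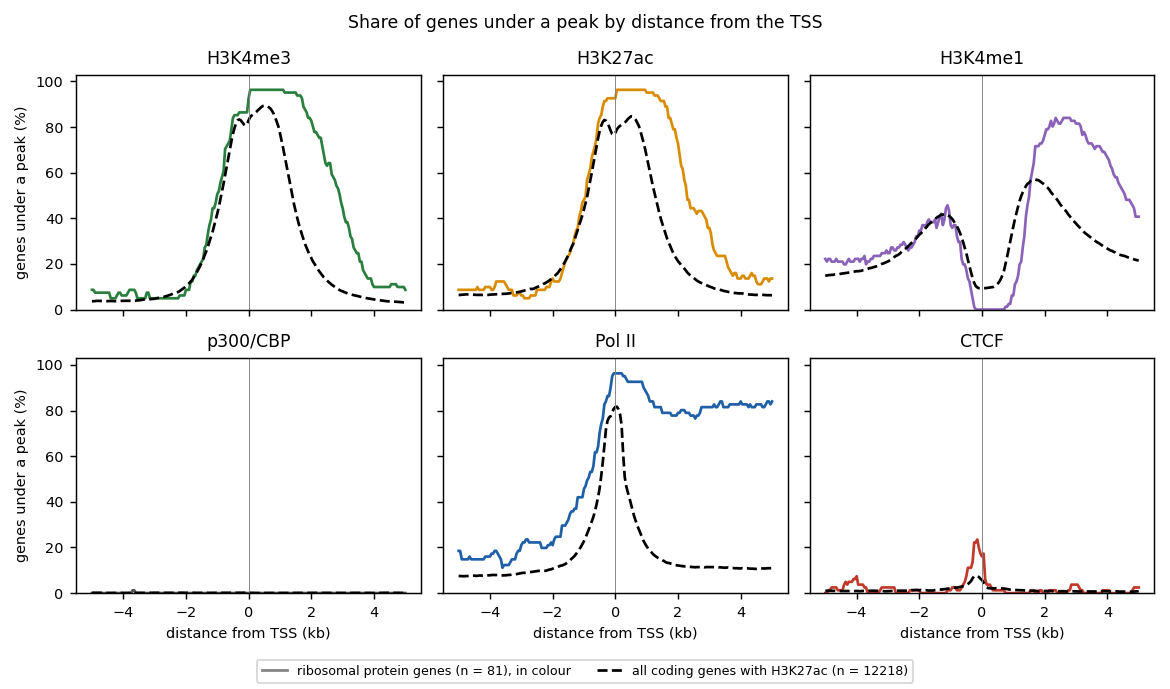
Share of genes (%) under a peak at each distance from the TSS (kb, in the direction of transcription) for the 6 lists, with ribosomal protein genes in colour and all genes with H3K27ac as dashed lines. H3K4me3 and H3K27ac of ribosomal protein genes reached further into the gene, H3K4me1 was at 0% at the TSS and 84.0% at 2350 bp, and Pol II was still at 84.0% at 5000 bp.

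p300/CBP touched no member window (0 of 81, interval up to 4.53%), and this was also rare elsewhere, at 0.704% of all genes and 0.99% of those with H3K27ac. A p300/CBP peak covered the TSS base at 0 members, 0.0654% of all genes and 0.106% of those with H3K27ac. The nearest p300/CBP peak was at a median of 218334 bp from a member TSS and 198663 bp from the TSS of all genes. The shortest distance was 3626 bp, at RPL8, a 60S protein close to the peptidyl transferase centre.

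H3K4me3 and H3K27ac peaks of the members were wide. The widest H3K4me3 peak in the window had a median of 4100 bp (quartiles 3175 to 4675) over the 78 members with one, and 2300 bp over genes with H3K27ac. For H3K27ac the medians were 3600 bp and 2100 bp. Of the 78 H3K4me3 peaks, 41 (52.6%) were above the 90th percentile of all genes with such a peak, 3950 bp, where 9.85% of all genes lay. For H3K27ac, 20 (25.6%) were above the 90th percentile of 4300 bp, against 9.74% of all genes. The widths of both marks went together, with a Spearman correlation of 0.69 across the 78 members. Genes are not replicates, and both marks share the gene and its neighbours.

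**Figure D3:**
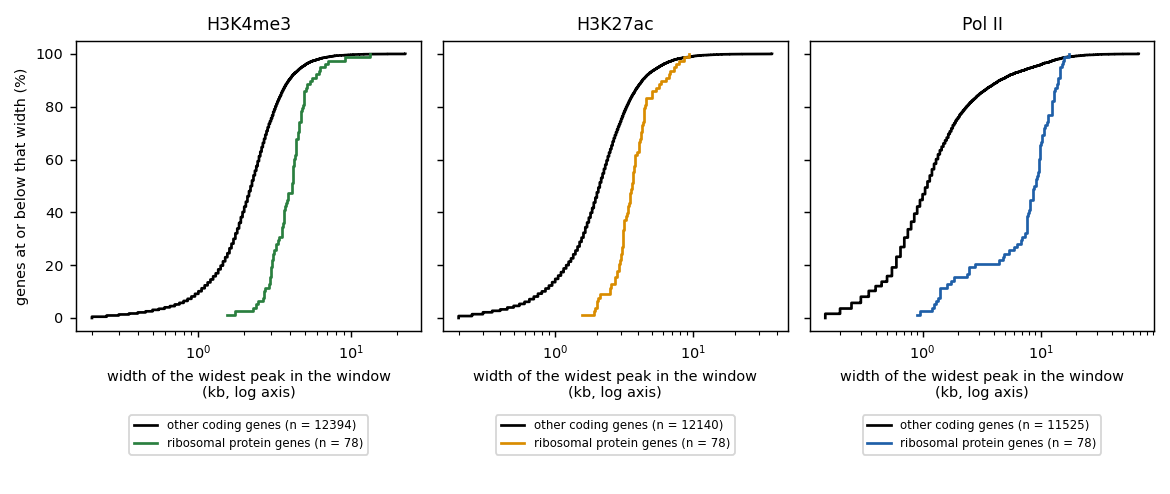
Cumulative share of genes (%) against the width of the widest peak in the TSS window (kb, log axis) for H3K4me3, H3K27ac and Pol II; coloured lines are the 78 ribosomal protein genes with a peak and black lines the other coding genes. The median widths of ribosomal protein genes were 4100, 3600 and 8950 bp.

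The additional width lay on the side of the gene body. Over the 75 members whose TSS was covered, H3K4me3 extended a median of 1066 bp upstream and 2911 bp downstream. In genes with H3K27ac it extended 902 bp upstream and 1394 bp downstream. H3K27ac extended 1051 and 2293 bp in members, against 927 and 1269 bp. The upstream arms thus differed by under 200 bp and the downstream arms by over 1000 bp. Translation factor genes had medians of 2678 bp downstream for H3K4me3 and 2060 bp for H3K27ac. Mitochondrial ribosomal protein genes, which encode the ribosome of another compartment, had 1292 and 1088 bp.

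The widest H3K4me3 peak, 13300 bp, was at RPL23A, a protein at the exit of the nascent chain tunnel, and its Pol II peak also held the TSSs of NEK8, RAB34 and TLCD1. It was followed by RPLP0 (9150 bp), RPS2 (7150 bp), RPS18 (6750 bp) and RPL3 (6250 bp). The narrowest were at RPS27 (1550 bp), RPL39L (1750 bp), RPS20 (2300 bp), RPL29 (2400 bp) and RPS15 (2450 bp). For H3K27ac, RPLP0 (9250 bp), RPL8 (8500 bp), RPL27 (7850 bp), RPL3 (7500 bp) and RPL23A (7200 bp) were widest. RPL39L (1550 bp), RPS27 (1900 bp), RPL11 (1950 bp), RPS15A (2000 bp) and RPS20 (2000 bp) were narrowest. RPL23A, RPLP0 and RPL3 were thus among the widest for both marks, and RPS27, RPL39L and RPS20 among the narrowest. Without the 23 members that have another coding TSS within 3000 bp, the medians were 3800 bp for H3K4me3 and 3450 bp for H3K27ac.

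Pol II peaks were wide as well. The widest Pol II peak in the window had a median of 8950 bp (quartiles 5538 to 11450) over 78 members, against 1100 bp over all genes with one. Of these 78 peaks, 61 (78.2%) exceeded 4740 bp, the 90th percentile of all genes, which 10.0% of all genes exceeded. Background subtraction is not marked for the Pol II list, while it is for H3K4me3 and H3K27ac, and its part in the Pol II shares was not tested. From the TSS, Pol II peaks extended a median of 914 bp upstream and 7024 bp downstream in members, and 520 and 449 bp in genes with H3K27ac. Pol II reached further downstream than H3K4me3 in 55 of the 75 members with both marks over the TSS (73.3%), against 10.9% of all 9123 such coding genes. At 5000 bp past the TSS, 84.0% of members were under a Pol II peak, against 10.9% of genes with H3K27ac.

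The canonical transcript, from TSS to transcript end, was wholly under Pol II peaks in 58 of 81 members (71.6%, interval 61.0 to 80.3), against 3.3% of all genes and 5.04% of those with H3K27ac. In 58 of 78 members the peak at the TSS ran past the transcript end, and the median end of that peak over the 78 was 2669 bp beyond the transcript. No share over other genes is given for this count. Members are short, with a median transcript length of 4522 bp against 23019 bp over all genes, and a peak of a given width covers more of a short gene. The share was therefore read in bins of transcript length, over the 78 members with H3K27ac. Up to 3000 bp, 15 of 17 members (88.2%) were wholly covered, against 40.2% of other genes with H3K27ac. From 3000 to 5000 bp the shares were 22 of 27 (81.5%) and 20.7%, from 5000 to 7500 bp 17 of 24 (70.8%) and 12.2%, and from 7500 to 20000 bp 4 of 10 (40%) and 3.03%. These 78 members all had Pol II over the TSS. Among other genes with H3K27ac and Pol II over the TSS, 50.4%, 24.7%, 14.4% and 3.57% were wholly covered in these bins. In each bin the share of members was higher than both. Whole coverage was present in 5 of 78 mitochondrial ribosomal protein genes, 5 of 16 translation factor genes and 3 of 28 ribosome biogenesis genes. The median transcript lengths of these families were 8412, 13584 and 15056 bp.

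**Figure D4:**
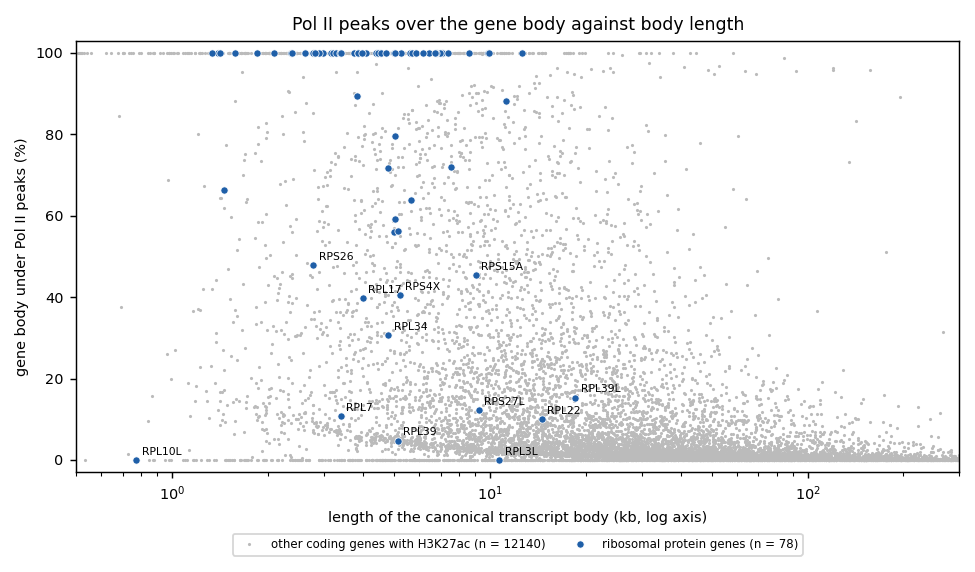
Share of the canonical transcript under Pol II peaks (%) against its length (kb, log axis shown from 0.5 to 300 kb) for 78 of the 81 ribosomal protein genes (blue) and the other coding genes with H3K27ac (grey). Ribosomal protein genes wholly covered lie at 100% at lengths up to 12669 bp (RPS19), and the lowest genes with a Pol II peak are RPL39, RPL22 and RPL7.

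The widest Pol II peaks were at RPS29 (17300 bp), RPS19 (15650 bp), RPL31 (15600 bp), RPL8 (15300 bp) and RPS24 (14600 bp). RPS29 is 2804 bp long, and its peak ended 13844 bp past the transcript, with no other coding TSS inside it. RPS19, the gene most often mutated in Diamond-Blackfan anaemia, has a transcript of 12669 bp, and its peak covered it whole and ran 2107 bp further. The peaks of RPL31 and RPS24 held no other coding TSS, while that of RPL8 held those of ZNF34 and ZNF517. In all, 31 members had another coding TSS inside their Pol II peak, a count given without a share over other genes. It includes joined gene records that start beside the member, such as RPS10-NUDT3 (2 bp from RPS10) and RPL36A-HNRNPH2 (1 bp from RPL36A). In these 31 members, transcription of the member and of the other record cannot be told apart.

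In 20 members Pol II covered the TSS and only part of the transcript. The lowest shares were 4.74% at RPL39 and 9.98% at RPL22, followed by 10.8% at RPL7, 12.2% at RPS27L, 15.3% at RPL39L and 30.6% at RPL34. The narrowest Pol II peaks were at RPS27L (900 bp), RPL39 (950 bp), RPL11 (1200 bp), RPL34 (1250 bp) and RPL39L (1300 bp). A Pol II peak covered the transcript end in 7 of the 20, and in 18 a separate peak covered it or lay within 5 kb past it. Words of 32 bases repeated elsewhere in the genome made up a median of 8.95% of the covered and 23.4% of the uncovered part of these 20 transcripts. The share was higher in the uncovered part in 16 of 20, with RPL11, RPL30, RPL39L and RPS27L as the exceptions. RPS15A had 6.53% under Pol II and 39.3% outside it, and RPL22 had 3.01% and 32.7%. The part of these repeats in the missing coverage was not tested. Across the 78 members with Pol II, the covered share had weak Spearman correlations with transcript length (-0.24), with the repeated share of the body (-0.22) and with the number of named pseudogenes (-0.23). Named pseudogenes ranged from 0 to 133, the latter for RPL21, and had a median of 13.

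**Figure D5:**
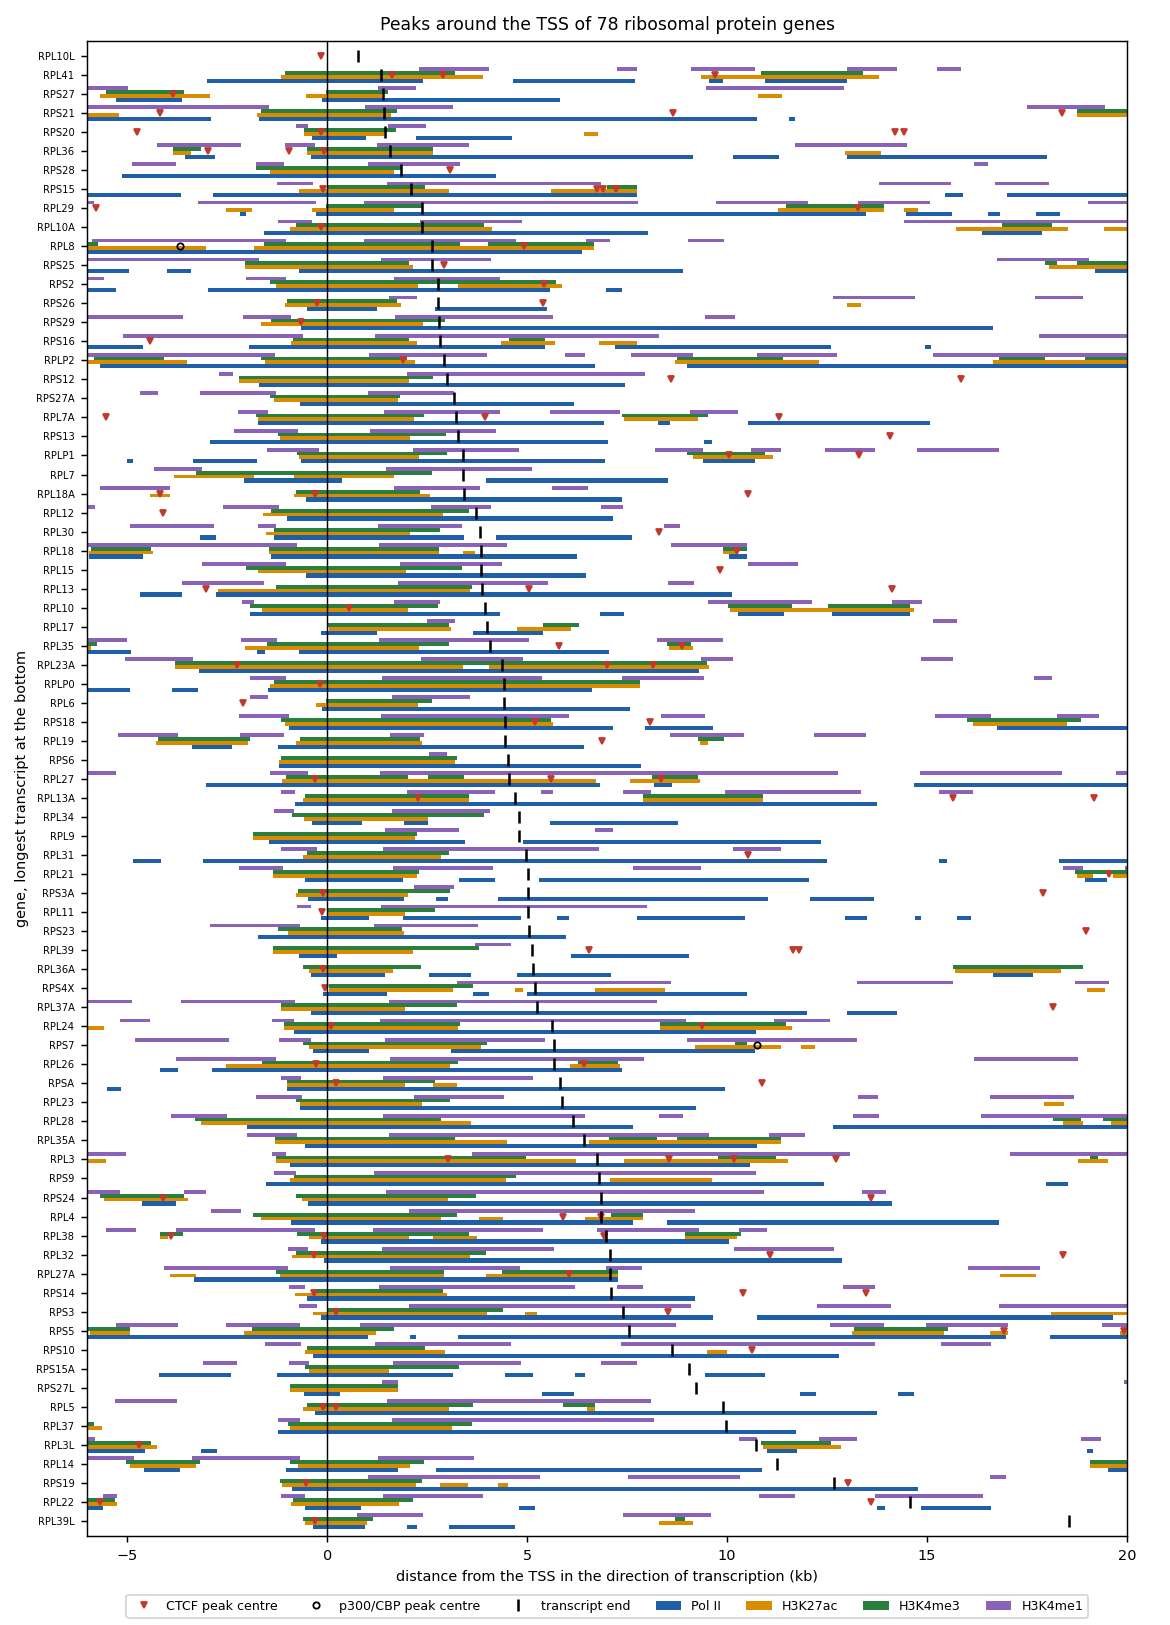
Peaks of the 6 lists from 6 kb before to 20 kb after the TSS of 78 ribosomal protein genes (distance in kb in the direction of transcription), ordered by transcript length with the longest at the bottom; bars are H3K4me1, H3K4me3, H3K27ac and Pol II peaks, triangles CTCF centres, circles p300/CBP centres and black ticks transcript ends. The Pol II peak at the TSS runs past the transcript end in 56 of the genes drawn, which leave out 3 of the 81 members. H3K4me1 bars lie on both sides of the TSS and none covers it.

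By role, the P stalk proteins, which recruit elongation factors to the 60S subunit, had the 3 marks and a wholly covered transcript in 3 of 3 genes. Their Pol II peaks measured 8100 bp at RPLP0, 7600 bp at RPLP1 and 12350 bp at RPLP2, and ended 2201, 3556 and 3774 bp past the transcript. RPSA, a 40S protein also known as the laminin receptor precursor, had H3K4me3 over 3700 bp and Pol II over 10950 bp. RPS27A, which is made as a fusion to ubiquitin, had H3K4me3 over 3250 bp and Pol II over 6850 bp. RPS6, the substrate of S6 kinase, had H3K4me3 over 4400 bp and Pol II over 9050 bp, with no CTCF peak within 77167 bp, the largest such distance in the family. All of these transcripts were wholly under Pol II.

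RPL5, RPL11 and RPL23 bind MDM2 when ribosome assembly is disturbed. Their H3K4me3 peaks measured 4150, 2700 and 3850 bp, and their Pol II peaks 14050, 1200 and 9900 bp. RPL5 and RPL23 were wholly under Pol II, whereas RPL11 was covered over 79.6% by several peaks, the one at the TSS ending 1054 bp into the gene. Among genes mutated in Diamond-Blackfan anaemia, 6 had the 3 marks and were wholly under Pol II: RPS19, RPS24, RPL35A, RPL5, RPS10 and RPL26. Others had the 3 marks and were covered over 79.6% (RPL11), 63.8% (RPS7) and 47.8% (RPS26). RPL4 and RPL17 line the tunnel of the nascent chain, and RPS3 and RPS2 lie at the entry of the mRNA into the 40S subunit. RPL4, RPS3 and RPS2 were wholly covered, with Pol II peaks of 8550, 9800 and 8550 bp, and RPL17 was covered over 39.8%.

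In 3 of 4 pairs, the paralog had a smaller share of its transcript under Pol II than the gene it resembles. RPS27 had Pol II over its whole transcript and RPS27L, known as a p53 target, over 12.2%. RPL3 was covered whole and RPL3L not at all, and RPL10 was covered whole and RPL10L not at all. The pair of RPL39 and RPL39L was the exception for Pol II, with 4.74% and 15.3%, but its H3K4me3 peaks measured 5150 and 1750 bp. For RPS27 and RPS27L the H3K4me3 widths were reversed, 1550 and 2700 bp. RPL39L and RPS27L are also longer, at 18549 and 9229 bp against 5127 and 1394 bp.

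snoRNA or small Cajal body RNA genes lay on the same strand inside 29 members (35.8%), with 60 such genes in all, against 1.93% of all protein-coding genes. RPL7A, RPL4, RPL23A and RPL13A each hosted 4. Whole coverage by Pol II was present in 22 of 29 hosts (75.9%) and in 36 of 52 other members (69.2%). H3K4me1 was in the window of 18 of 29 hosts and of 44 of 52 others. On the X chromosome, 1 of 4 members was wholly covered (RPL10), none had H3K4me1 in the window and 3 had CTCF. On chromosome 19, 11 of 12 members were wholly covered. These groups are small and were not compared by a test. No share over the other genes of chromosomes X and 19 is given, so the counts there are not read as traits of the members.

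CTCF touched 26 member windows (32.1%, interval 22.9 to 42.9), against 17.6% of all genes and 24.4% of those with H3K27ac. Among members with H3K27ac the share was 30.8%. Translation factor genes had a higher share, 37.5% (6 of 16). Mitochondrial ribosomal protein genes had 20.5% and ribosome biogenesis genes 14.3%. Background subtraction is not marked for this list, and its part in these shares was not tested. It covered the TSS base of 13 members (16.0%, interval 9.63 to 25.5), against 4.08% and 5.75%. The share of members under CTCF was highest 150 bp before the TSS, at 23.5%. Genes with H3K27ac had their highest share, 7.59%, at a similar place, 200 bp before the TSS. The peak centres nearest to a TSS included those at RPS4X (52 bp upstream), RPL36 (81 bp upstream), RPL24 (87 bp downstream), RPL38 (92 bp upstream), RPS15 (95 bp upstream), RPL5 (97 bp upstream), RPL36A (99 bp upstream), RPS3A (105 bp upstream) and RPL11 (121 bp upstream). With a grid of 50 bp, neighbours in this order cannot be told apart.

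A shortened form of the CTCF motif (CC, any 3 bases, AG, any 2 bases, GGC) was searched on both strands of the 28 CTCF peaks in member windows and occurred in 10 (35.7%), against 37.9% of all 39596 CTCF peaks. The following lines give the match, in capitals and on its own strand, for 6 peaks that held it and covered a TSS. The match itself need not lie at the TSS, since the RPL26 peak was 700 bp wide and that of RPLP0 600 bp.

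RPL5 (chr1:93297479-93297508, plus strand): accctccttCCAGCAGGGGGCggaacgtaa
RPLP0 (chr12:120639133-120639162, minus strand): agctccagcCCAGCAGGTGGCagcagctca
RPL26 (chr17:8286910-8286939, plus strand): tgcttctggCCGCCAGGAGGCgcggggacg
RPL38 (chr17:72199682-72199711, plus strand): tgacttcgaCCACAAGGGGGCagggctgct
RPS15 (chr19:1438271-1438300, plus strand): gtgttttgcCCTCCAGACGGCagagggcgc
RPS4X (chrX:71497170-71497199, minus strand): gacctcccaCCAGCAGATGGCaagaaagag

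In RPL11, RPS15 and RPS4X an H3K4me3 peak was in the window but did not cover the TSS base, and CTCF covered it in these 3 genes. The H3K4me3 peak began 5, 6 and 48 bp after the TSS, which is no more than the 50 bp grid. H3K27ac likewise began 5 bp after the TSS in RPL11, 48 bp after it in RPS4X and 35 bp after it in RPL17, where no CTCF peak was near. These 4 TSSs lay at the upstream edge of at least 1 of the marks, and in each a Pol II peak covered the TSS.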

How the data were processed

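ChIP-seq for 6 antibodies in MDA-MB-231 cells (13 samples with inputs) had been deposited by the authors as 1 list of peak positions per antibody, with no count, signal or other value per peak, so no depth per sample and no unit other than base pairs was available. According to the methods of the study, reads were aligned to hg19 with BWA-backtrack, whereas the submitters' processing notes name Bowtie2. Uniquely mapped reads were kept, replicates were merged and peaks were called by a threshold (30 for H3K4me1 and H3K4me3, 50 for H3K27ac, Pol II and CTCF, 60 for p300/CBP). The threshold, the joining gap and the 50 bp grid set the widths reported here.

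Genes and canonical TSSs came from GENCODE release 44 on GRCh37, sequences from GRCh37. None of the 233689 peaks ran beyond a GRCh37 chromosome end by a grid step of 50 bp or more. Peaks were intersected with TSS windows (1500 bp on each side) and canonical transcripts in Python 3.11.15 with NumPy 2.4.6, SciPy 1.17.1, numba 0.67.0 and matplotlib 3.10.9. Repeated sequence was the share of 32-base words found more than once in GRCh37, on either strand. Interval and word functions were tested on simulated data with 0 errors in 3000 and 4969 comparisons. With merged replicates and 1 condition no test was made. No column of values was left unmapped (0). The alternatives were a 1 kb window, coverage of the TSS base, wide peaks only, all annotated TSSs, other gene sets and other definitions of the gene body.

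Members, gene lists and alternatives were chosen with earlier results of these data known. Named singly were members without H3K4me3, H3K27ac or Pol II, any with p300/CBP, the 10 nearest CTCF centres, the 5 widest and narrowest peaks of each list, the 5 lowest Pol II shares, the 4 paralogs and members chosen by role. Other members named singly, such as RPL7, RPL34 and RPL7A, were chosen after their values were seen. Some members enter the counts but are not reported singly here, and the map and the Pol II plot leave them out.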

Additional observations from a re-analysis of the deposited data

How the results depend on the processing

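No paired analysis was possible because each list came from pooled replicates and is 1 observation, and leaving out a replicate was not possible either. Of 51 alternative values for 11 results, 48 stayed within 1.5 times the reported count or, for medians, within the 95% interval of the median over members, and 3 moved. H3K4me1 was counted in 62 member windows of 3 kb, in 14 windows of 1 kb and over 0 TSS bases. CTCF fell from 26 windows to 13 members when the peak had to cover the TSS base. Transcripts wholly under Pol II numbered 58, and 43 when the whole gene record was used in place of the canonical transcript. Leaving out the paralogs and members with over 50% repeated words in the window, an alternative chosen after seeing the data, left H3K4me3, H3K27ac and Pol II in 76 of 76 members. Raising the peak threshold was not possible without a value per peak. A version restricted to the wider peaks of each list (median width or more) was counted, but width is not height. It could not change the counts for H3K4me3, H3K27ac and Pol II. Their narrowest member peaks (1550, 1550 and 900 bp) exceeded the medians of the lists (1150, 1300 and 850 bp). How a higher threshold would change the widths and the coverage of transcripts was not tested. Without heights or depth, a missing peak means only that none passed the authors' threshold, and repeated sequence cannot be told apart from absent signal.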
